A study of Rattus norvegicus with 6 samples.

Results

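The genes described here are those of 3 peptide hormone systems that act on blood vessels and the heart. For angiotensin they are the receptor genes Agtr1a and Agtr2, the precursor Agt and the converting enzyme Ace. For endothelin they are the ligand Edn1 and the receptors Ednra and Ednrb, and for the natriuretic peptides the receptors Npr1, Npr2 and Npr3. The 10 symbols, 7 of them receptors, were chosen from results of the comparison reported here, so their differences between the groups are given as a description without a test. By symbol, 9 of the 10 matched a row among the 30560 genes of the deposited table, and Agtr2 was not analysed here.

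RNA came from primary cultures of cardiac fibroblasts of Sprague-Dawley rat pups aged 1 to 2 days, prepared from ventricles by enzyme digestion and an attachment step of 2 to 4 h. After a night without serum the cells received 50 nM of an antagomiR against miR-142-3p or 50 nM of a negative control oligonucleotide (NC) by lipid transfection. AntagomiRs are synthetic antisense strands designed to bind and block a mature microRNA. Each group had 3 libraries of polyadenylated RNA, and all 6 shared the strain, age, starvation and transfection reagent. The labels do not say whether the libraries came from separate isolations, and p-values therefore reflect the spread among these libraries alone, which may be technical. The labels record the antagomiR group as a knockdown of miR-142-3p, but polyadenylated RNA does not measure the mature microRNA, and whether it was silenced was not checked.

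Levels are FPKM, fragments scaled to the length of the gene and to the total of the library. Fragment totals recovered from these values lay between 19472409 and 24622667 per library, at which 3 fragments on a 1 kb transcript corresponded to between 0.122 and 0.154 FPKM. That floor covers counting error only. The 10 fibroblast markers summed to between 10740 and 11450 FPKM in every library, while 6 of them rose and 2 fell with the antagomiR. Col1a1 (means 4609 and 4161 FPKM), Col1a2 (3386 and 2731) and Col3a1 (2516 and 2460) were the largest parts of that sum, which joins opposite changes. Pdgfra (means 8.5 and 27.5 FPKM), Dcn (12.3 and 33.4) and Postn (687.2 and 1272) were among those that rose. Those that fell were Col1a2 and Thy1 (47.67 and 33.95). The 15 leukocyte markers, 7 of which rose, summed to 151.5 and 223.5 FPKM in NC replicates 1 and 2, 770.2 in NC replicate 3, and 1121, 1005 and 1061 in the antagomiR replicates. By this sum, of which Lyz2 was the largest part, NC replicate 3 stood apart from the other NC libraries, toward the antagomiR libraries. The list was split, and 10 markers were higher in every antagomiR library than in any NC library. For Cd68, Mrc1, C1qa, C1qb and C1qc the groups overlapped, and NC replicate 3 was above every antagomiR library. C1qc, for example, stood at 20.7 FPKM in NC replicate 3 and between 12.3 and 15.1 with the antagomiR. The 10 smooth muscle and pericyte markers summed to between 512.6 and 532.9 FPKM in NC and between 351.5 and 365.3 with the antagomiR, where 5 of 7 tested ones fell (Myh11, Cnn1, Cspg4, Mcam and Notch3) and 0 rose. Des, which is among the tested ones, had means of 3.07 and 4.16 FPKM. Rgs5, Kcnj8 and Abcc9 were too low to be tested, at or below 0.453 FPKM throughout. Kcnj8 (means 0.098 and 0.309 FPKM) and Abcc9 (0.219 and 0.403) were higher in every antagomiR library than in any NC library. Rgs5 overlapped between the groups.

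Angiotensin II is cut from the liver protein angiotensinogen in steps, the last by angiotensin-converting enzyme, and it acts mainly through the AT1 receptor, which signals through Gq proteins. In cardiac fibroblasts that receptor is known for stimulating growth and collagen production. Endothelin-1 is a vasoconstrictor peptide that acts on the Gq-coupled receptors ETA and ETB. The natriuretic peptides oppose both: Npr1 and Npr2 encode membrane guanylyl cyclases that make cyclic GMP, and Npr3 encodes a receptor that removes the peptides from the extracellular space.

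The mature microRNA that the antagomiR is directed against is printed first, with its seed, bases 2 to 8, in capitals. It maps to chr10:73055155-73055177 on the plus strand of the RefSeq build GRCr8. The other sequences are the 250 bases before the RefSeq start of Agtr1a (chr17:34435433-34435682, minus strand) and of Edn1 (chr17:22666688-22666937, minus strand), shown because these are the genes of the set counted as called in the fit described below. Capitals in them mark matches, on either strand, to any of 5 motifs. The TATA box was searched as TATAAA. The GC box, a site of Sp1 and related factors, was searched as GGGCGG. The site of GATA factors was searched as AGATAA. The core of the cAMP response element was searched as TGACG, and the AP-1 site of Fos and Jun as TGANTCA.
rno-miR-142-3p: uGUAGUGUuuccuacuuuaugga
Agtr1a upstream window: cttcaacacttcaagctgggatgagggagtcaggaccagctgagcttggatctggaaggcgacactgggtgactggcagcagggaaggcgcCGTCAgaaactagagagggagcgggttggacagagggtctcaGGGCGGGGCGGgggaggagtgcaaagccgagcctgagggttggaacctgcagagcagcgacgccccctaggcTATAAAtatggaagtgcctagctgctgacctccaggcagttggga
Edn1 upstream window: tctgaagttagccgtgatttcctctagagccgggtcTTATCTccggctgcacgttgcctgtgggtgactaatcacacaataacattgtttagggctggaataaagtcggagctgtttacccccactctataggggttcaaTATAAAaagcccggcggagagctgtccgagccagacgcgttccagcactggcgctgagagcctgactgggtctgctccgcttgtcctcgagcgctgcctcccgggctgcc

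RefSeq upstream windows matched 8 of the 10 symbols, Agtr2 included. The Agtr1a window held the TATA box from 45 to 40 bases before the start, overlapping GC boxes from 117 to 112 and from 112 to 107, and the cAMP element on the opposite strand from 159 to 155. In the Edn1 window the TATA box lay from 110 to 105 bases before the start, and the GATA motif on the opposite strand from 214 to 209. The TATA box stood in 3 of the 8 windows (Ace, Edn1 and Agtr1a), against 12.9% of 33469 promoters of the same length. The GC box stood in Npr1, Ace and Agtr1a, against 30.5% of promoters, and the cAMP element in Ednrb and Agtr1a, against 18.2%. The GATA motif stood in Edn1 only, against 10.3%. The AP-1 motif, held by 6.34% of promoters, matched in 0 of the 8, as did the NF-kB motif (6.33%) and the CArG box (1.5%). A match is a description of the letters in the window and not evidence of binding.

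Agtr1a, the gene of the main AT1 receptor of rodents, was at a higher level in every antagomiR library than in any NC library. It stood at 16.6, 16.7 and 14.3 FPKM in NC replicates 1, 2 and 3, from 843, 1056 and 735 fragments. With the antagomiR it stood at 52.9, 59.9 and 60.8 FPKM, from 3061, 3845 and 3621 fragments. The group means were 15.9 ± 1.35 and 57.8 ± 4.34 FPKM (SD, n = 3 each), a ratio of 3.64, and the gap between the groups exceeded the spread within either. On the log2(FPKM + 1) scale the limma fit gave a difference of 1.80 with a standard error of 0.08 (95% interval 1.61 to 2.00). Among tested genes ordered by their mean level, Agtr1a moved from place 4109 in NC to place 1211 with the antagomiR. In bulk RNA a change in the number of cells of a type cannot be told apart from a change in the RNA per cell.

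Agtr1a (ENSRNOG00000018346) is annotated in mRatBN7.2 at chromosome 17, 34174429 to 34226946. No other gene of the table overlapped the span of any of the 9 matched genes. Its near-identical copy Agtr1b was listed between 0 and 0.0471 FPKM, and the counting of reads that match both copies is not given in the sources used here, so that the split between them is uncertain. The value of Agtr1a in NC replicate 3, whose leukocyte markers were the highest of NC, was the lowest of the 6 libraries. Without that library the difference was 1.73. Of the tested markers of smooth muscle cells and pericytes, which are known for AT1 receptors, 5 of 7 fell with the antagomiR. Kcnj8 and Abcc9 of the same list, too low to be tested, were higher. Of the 10 fibroblast markers 6 rose (Dcn, Lum, Pdgfra, Ddr2, Tcf21 and Postn) and 2 fell (Col1a2 and Thy1). Pdgfra, with the largest difference of that list, had means of 8.5 and 27.5 FPKM. The part of fibroblasts or of smooth muscle cells and pericytes in the level of Agtr1a was not tested.

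The other angiotensin genes of the set were near the detection floor. Agt, the angiotensinogen gene, stood at 0.319, 0.0853 and 0.394 FPKM in NC, from 12, 4 and 15 fragments. It stood at 0.0699, 0.105 and 0.0679 FPKM with the antagomiR, from 3, 5 and 3 fragments. Its groups overlapped, through NC replicate 2. Ace stood at 0.0531, 0.0746 and 0.223 FPKM in NC, from 4, 7 and 17 fragments. With the antagomiR it stood at 0.233, 0.105 and 0.237 FPKM, from 20, 10 and 21 fragments. Its groups overlapped as well, and NC replicate 3 was level with the antagomiR libraries. Neither Agt nor Ace reached the mean of 1 FPKM over the 6 libraries that was required for testing. No difference between the groups is read from so few fragments.

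Edn1, the precursor gene of endothelin-1, had the highest level of the 9 genes in both groups and a lower level with the antagomiR. It stood at 105.9, 93.7 and 87.3 FPKM in NC, from 4058, 4469 and 3382 fragments. With the antagomiR it stood at 67.8, 71.8 and 74.1 FPKM, from 2962, 3479 and 3329 fragments. The means were 95.6 ± 9.48 and 71.2 ± 3.18 FPKM (SD, n = 3 each), a ratio of 0.745, and the ranges did not overlap. The log2 difference was -0.42 with a standard error of 0.08 (95% interval -0.60 to -0.23). Edn1 (ENSRNOG00000014361) lies on chromosome 17 from 22454420 to 22460885. Endothelial cells are a known source of endothelin-1, and their markers Pecam1, Cdh5, Kdr and Vwf were below 0.28 FPKM in every library, with Emcn listed at 0. Pecam1 (means 0.0602 and 0.174 FPKM), Cdh5 (0.0614 and 0.253) and Esam (0.382 and 1.11) were nevertheless higher in every antagomiR library than in any NC library. They were too low to be tested. Kdr, Vwf, Tie1 and Egfl7 overlapped between the groups. Of 3 tested endothelial markers Erg fell, from 8.71, 9.02 and 6.07 FPKM in NC to 5.86, 3.47 and 4.35 with the antagomiR, and Tek rose, from a mean of 1.85 to 2.56 FPKM. The part of endothelial cells in the level of Edn1 was not tested. The 10 endothelial markers together summed to between 11.1 and 12.7 FPKM in NC and between 9.71 and 12.3 with the antagomiR. Erg was the largest part of that sum, with means of 7.93 and 4.56 FPKM, so the sum joins opposite changes.

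**Figure D1:**
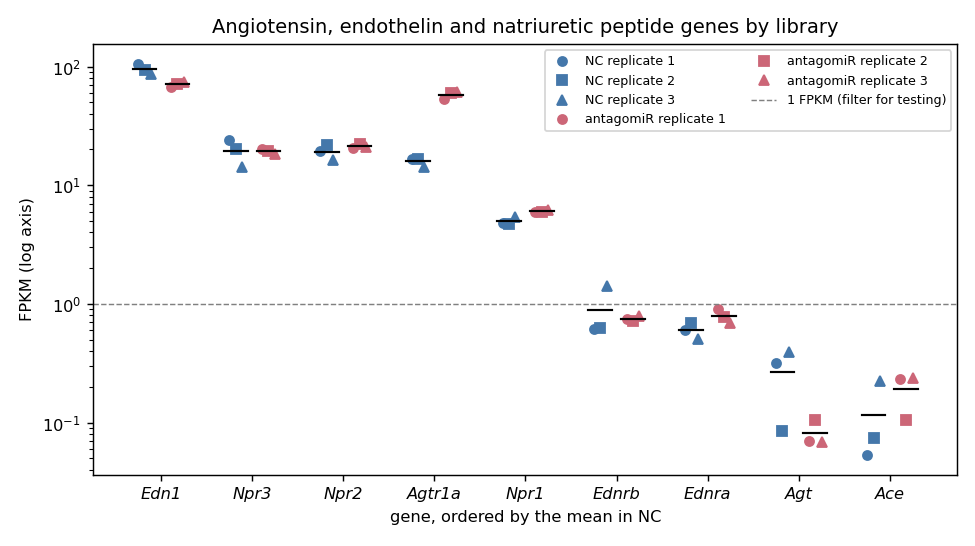
FPKM of the 9 matched genes in each of the 6 libraries, on a log axis, with genes ordered by their mean in NC and black bars at the group means. Edn1 is at the top in both groups, Agtr1a moves from 15.9 to 57.8 FPKM, and Ednrb, Ednra, Agt and Ace have means below the dashed line at 1 FPKM.

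Both endothelin receptor genes were far lower than their ligand gene. Ednra, which encodes the ETA receptor, stood at 0.606, 0.684 and 0.505 FPKM in NC, from 32, 45 and 27 fragments. With the antagomiR it stood at 0.913, 0.779 and 0.694 FPKM, from 55, 52 and 43 fragments. The ranges did not overlap, but the highest NC library and the lowest antagomiR library were only 0.684 and 0.694 FPKM. The means were 0.599 ± 0.0897 and 0.795 ± 0.111 FPKM (SD, n = 3 each). Ednrb, which encodes the ETB receptor, stood at 0.618, 0.620 and 1.43 FPKM in NC, from 24, 30 and 56 fragments. It stood at 0.745, 0.713 and 0.790 FPKM with the antagomiR, from 33, 35 and 36 fragments. NC replicate 3 held the highest value of Ednrb and the lowest of Ednra. The NC mean of Ednrb was 0.888 ± 0.466 FPKM with that library and 0.619 without it, and the antagomiR mean was 0.749 ± 0.0387, above or below NC accordingly. The ratio of Ednra to Ednrb in the same library was 0.980, 1.10 and 0.355 in NC and 1.23, 1.09 and 0.878 with the antagomiR, so NC replicate 3 was apart from the other 5. Leukocyte markers were high in that library too, and their part in these values was not tested.

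**Figure D2:**
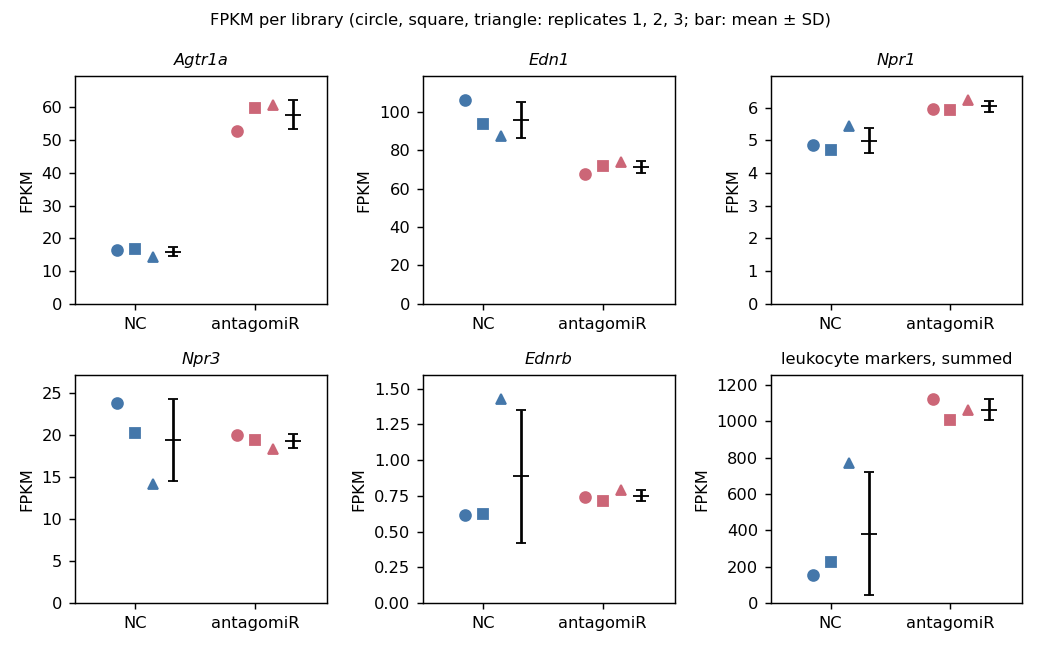
FPKM in each library of 5 of the genes and of the sum of 15 leukocyte markers, on linear axes from 0; points are libraries and bars are the mean with its SD (n = 3). Agtr1a and Edn1 separate the groups in opposite directions, while NC replicate 3 (blue triangle) is apart from the other NC libraries for Npr3, Ednrb and the leukocyte sum.

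The natriuretic peptide receptor genes differed much less between the groups. Npr1, which encodes the guanylyl cyclase that binds the atrial and B-type peptides, stood at 4.85, 4.70 and 5.43 FPKM in NC, from 383, 462 and 434 fragments. With the antagomiR it stood at 5.96, 5.93 and 6.22 FPKM, from 537, 592 and 577 fragments. Every antagomiR library was above every NC library, by a ratio of means of 1.21 (4.99 ± 0.388 against 6.04 ± 0.163 FPKM, SD, n = 3 each). The log2 difference was 0.23 with a standard error of 0.07 (95% interval 0.06 to 0.40). Scaling by median ratios gave 0.18, and quantile normalization 0.09; both set the bulk of the genes level between libraries. Without NC replicate 3 the difference was 0.29.

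Npr2, which encodes the guanylyl cyclase that binds C-type natriuretic peptide, stood at 19.4, 21.6 and 16.5 FPKM in NC and at 20.5, 22.1 and 21.1 FPKM with the antagomiR. The groups overlapped. The means were 19.2 ± 2.59 and 21.2 ± 0.827 FPKM (SD, n = 3 each), and the log2 difference was 0.15 with a 95% interval of -0.08 to 0.38. Npr3, the clearance receptor gene, stood at 23.8, 20.2 and 14.2 FPKM in NC and at 20.0, 19.3 and 18.4 FPKM with the antagomiR. Its groups overlapped, and the NC libraries spread more widely than the antagomiR libraries. The means were 19.4 ± 4.86 and 19.3 ± 0.821 FPKM, and the 95% interval of the log2 difference, -0.37 to 0.41, left room for a difference in either direction. That difference was 0.02 with all libraries, -0.18 without NC replicate 3, 0.17 without NC replicate 1 and -0.01 without antagomiR replicate 1. Scaling by median ratios gave -0.05 and quantile normalization -0.06, so it has no settled sign.

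Npr2 was the highest of the natriuretic receptor genes in every antagomiR library, while in NC replicate 1 it was Npr3. Npr3 made up 49.5%, 43.4% and 39.4% of the summed FPKM of Npr1, Npr2 and Npr3 in NC replicates 1, 2 and 3, and 43.1%, 40.8% and 40.3% with the antagomiR. Npr1, the smallest share, was 10.1%, 10.1% and 15.1% in NC and 12.8%, 12.5% and 13.6% with the antagomiR. NC replicate 3 had the highest Npr1 share and the lowest Npr3 share of the 6 libraries, and its sum of the 3 genes, 36.1 FPKM, was the lowest of sums that reached 48.1. The shares overlapped between the groups.

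The ratios of Agtr1a to Edn1 and to Npr2 within a library separated the groups. Agtr1a was 0.157, 0.178 and 0.164 of the Edn1 level in NC and 0.780, 0.834 and 0.821 of it with the antagomiR. It was 0.855, 0.773 and 0.870 of the Npr2 level in NC and 2.58, 2.71 and 2.88 times that level with the antagomiR. In NC the genes ranked by mean FPKM as Edn1, Npr3, Npr2, Agtr1a, Npr1, Ednrb, Ednra, Agt and Ace. There the ranges of Npr3 and Npr2, of Npr2 and Agtr1a, of Ednrb and Ednra, and of Agt and Ace overlapped. With the antagomiR the order was Edn1, Agtr1a, Npr2, Npr3, Npr1, Ednra, Ednrb, Ace and Agt, and only Ednra with Ednrb and Ace with Agt overlapped. Edn1 exceeded the summed level of both its receptor genes by 86.6, 71.8 and 45.2 times in NC and by 40.9, 48.2 and 49.9 times with the antagomiR. NC replicate 3 lay within the antagomiR range of that ratio, so the groups overlapped.

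A gene was called when limma on log2(FPKM + 1) gave a Benjamini-Hochberg adjusted p under 0.05 over the 12024 genes that averaged 1 FPKM or more. Of the 9 matched genes 5 were tested, and 2 of these were called, Agtr1a and Edn1, where 26.7% of all tested genes were called. Ranges did not overlap for 3 of the 5, Agtr1a, Edn1 and Npr1, where 44.6% of all tested genes had ranges that did not overlap. Since these values chose the genes, nothing is read from the counts. Over the alternative settings the log2 difference ranged from 1.73 to 1.87 for Agtr1a and from -0.48 to -0.34 for Edn1. Npr1, not called in the main fit, was called without a trend, with voom on the fragments (0.28) and without NC replicate 3 (0.29). No other alternative called it. The same comparison chose Npr1, so nothing is read from these calls either.

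The 103 other genes of these pathways, written down as 5 lists by role, were taken from the same fit. The lists were written with earlier results of these data known, and the genes named below include those with the smallest p. Their shares and adjusted p-values are therefore a description and not independent support. Of 69 tested genes 14 rose and 9 fell, 20.3% and 13.0%, against 17.5% and 9.21% of all tested genes, and the median log2 difference was 0.06 in both. Without NC replicate 3 the number of called genes was 39, and without antagomiR replicate 1, 2 or 3 it was 14 in each case. The number over all genes moved the same way. It was 3216 of 12024 in the main fit and 4877 of 12032 without NC replicate 3. Without antagomiR replicate 1, 2 or 3 it was 2016 of 11999, 1986 of 11999 and 1866 of 11985. Nothing particular to the lists is read from such changes, here or for each list below. Differences between the lists were not tested.

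**Figure D3:**
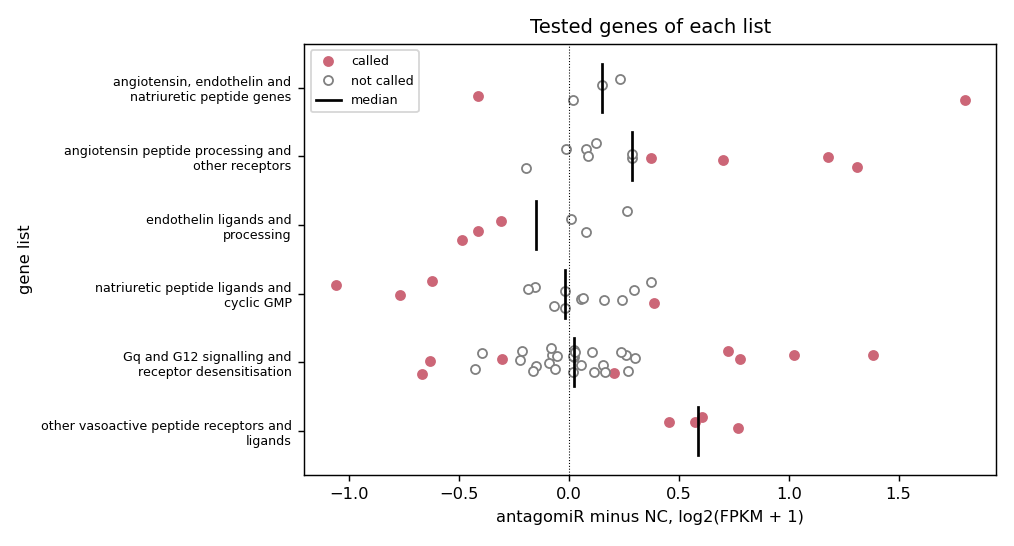
Difference of antagomiR and NC on the log2(FPKM + 1) scale for each tested gene of the set and of the 5 pathway lists; filled points were called, and the vertical bars are list medians. Endothelin processing genes that were called lie left of 0, and called genes of the angiotensin processing and other vasoactive lists lie right of 0.

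Among angiotensin processing genes and other receptors 4 of 11 tested genes rose, 0 fell, and the median log2 difference was 0.29. Enpep, the aminopeptidase that turns angiotensin II into angiotensin III, rose from 1.52 ± 0.260 to 4.69 ± 0.496 FPKM (SD, n = 3 each), a log2 difference of 1.18 (SE 0.11, limma adjusted p = 0.00045). Nln, the endopeptidase neurolysin, rose from 9.29 ± 0.814 to 12.3 ± 0.283 FPKM (0.37, SE 0.07, adjusted p = 0.00939). Anpep, which trims angiotensin III further, was at 3.90, 4.83 and 14.5 FPKM in NC and between 17.5 and 18.2 with the antagomiR (1.31, SE 0.39, limma adjusted p = 0.0465). Prcp, a carboxypeptidase that can degrade angiotensin II, was at 7.0, 7.07 and 12.9 FPKM in NC and between 14.4 and 14.9 with the antagomiR (0.70, SE 0.20, limma adjusted p = 0.0429). For both, NC replicate 3 lay toward the antagomiR libraries, as did its sum of leukocyte markers. The part of leukocytes was not tested. The calls of Anpep and Prcp were lost in 13 and 11 of the 17 alternatives. The list had 8 called genes without NC replicate 3 and 2 without any of the other 5 libraries. Mme, the gene of neprilysin, which degrades angiotensin and natriuretic peptides alike, was at 7.34 ± 1.18 FPKM in NC and 6.23 ± 0.178 with the antagomiR (-0.20, limma adjusted p = 0.231). When NC replicate 3 was left out it passed the threshold (-0.32, adjusted p = 0.00648).

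Among endothelin ligands and processing enzymes 0 of 6 tested genes rose and 3 fell, with a median of -0.15. Ece1, the main enzyme that releases endothelin-1 from its precursor, was at 38.6 ± 0.431 FPKM in NC and 40.7 ± 1.16 with the antagomiR (log2 difference 0.08, limma adjusted p = 0.279). Its relative Ece2 fell from 3.55 ± 0.237 to 2.67 ± 0.147 FPKM (-0.31, SE 0.08, limma adjusted p = 0.028). Pcsk6, a proprotein convertase, fell from 40.5 ± 3.74 to 28.6 ± 1.30 FPKM (-0.49, SE 0.08, limma adjusted p = 0.00422), and its relative Pcsk5 from 18.1 ± 2.35 to 13.3 ± 0.673 FPKM (-0.41, SE 0.09, adjusted p = 0.0172). Pcsk7 missed the threshold at 0.26 (limma adjusted p = 0.109) and passed it when NC replicate 3 was left out, at 0.35 (adjusted p = 0.0197). The call of Ece2 was lost in 7 alternatives, and without antagomiR replicate 1 or 3 the list had 1 called gene. Edn2 and Edn3, the genes of the other endothelins, were listed at 0 in every library.

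Among natriuretic peptide ligands and cyclic GMP genes 1 of 15 tested genes rose and 3 fell, with a median of -0.02. Gucy1a1 and Gucy1b1, the subunits of soluble guanylyl cyclase, which makes cyclic GMP in response to nitric oxide, both fell. Gucy1b1 stood at 28.2, 23.4 and 21.8 FPKM in NC and at 11.5, 11.0 and 10.9 with the antagomiR, a log2 difference of -1.06 (SE 0.09, limma adjusted p = 0.000367). Gucy1a1 stood at 9.25, 8.38 and 7.63 FPKM in NC and at 4.51, 4.62 and 4.42 with the antagomiR (-0.77, SE 0.08, limma adjusted p = 0.000694). The membrane cyclases Npr1 and Npr2 were not lower in the same libraries. Of the tested markers of smooth muscle cells and pericytes, which are known for soluble guanylyl cyclase, 5 of 7 fell as well. Kcnj8 and Abcc9 of the same list, too low to be tested, were higher. The part of these cells in the levels of Gucy1a1 and Gucy1b1 was not tested. Pde10a, a phosphodiesterase, fell from 5.77 ± 0.231 to 3.39 ± 0.0906 FPKM (-0.62, SE 0.07, limma adjusted p = 0.000793). Abcc4, an exporter of cyclic nucleotides, rose from 3.05 ± 0.386 to 4.28 ± 0.0520 FPKM (0.39, SE 0.09, limma adjusted p = 0.0191), a call lost without any 1 of the antagomiR libraries and under quantile normalization (0.23, adjusted p = 0.0977). The list had 7 called genes without NC replicate 3.

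The ligand genes of the natriuretic receptors did not pass the threshold. Nppa, the gene of atrial natriuretic peptide, stood at 48.9, 51.3 and 51.1 FPKM in NC and at 59.8, 52.0 and 57.4 with the antagomiR (log2 difference 0.16, SE 0.06, limma adjusted p = 0.114). Nppb, the gene of the B-type peptide, was at 10.8 ± 1.25 and 11.2 ± 0.713 FPKM (0.05, limma adjusted p = 0.706), and the sign turned after either rescaling. Nppc, the gene of the C-type peptide, was at 1.58 ± 0.334 and 2.35 ± 0.590 FPKM (0.37, SE 0.16, limma adjusted p = 0.134). Cardiomyocytes are a known source of the first of these, and of their 9 tested markers 3 rose (Myh7, Actc1 and Myl2) and 1 fell, with a median log2 difference of 0.24. The one that fell, Tnnt2, went from 339.0 to 253.8 FPKM and made up most of the marker sum, which was between 384.7 and 428.8 FPKM in NC and between 306.5 and 361.5 with the antagomiR. The part of these markers in the levels of Nppa and Nppb was not tested. Corin, the protease that activates the atrial peptide, was at or below 0.0829 FPKM.

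**Figure D4:**
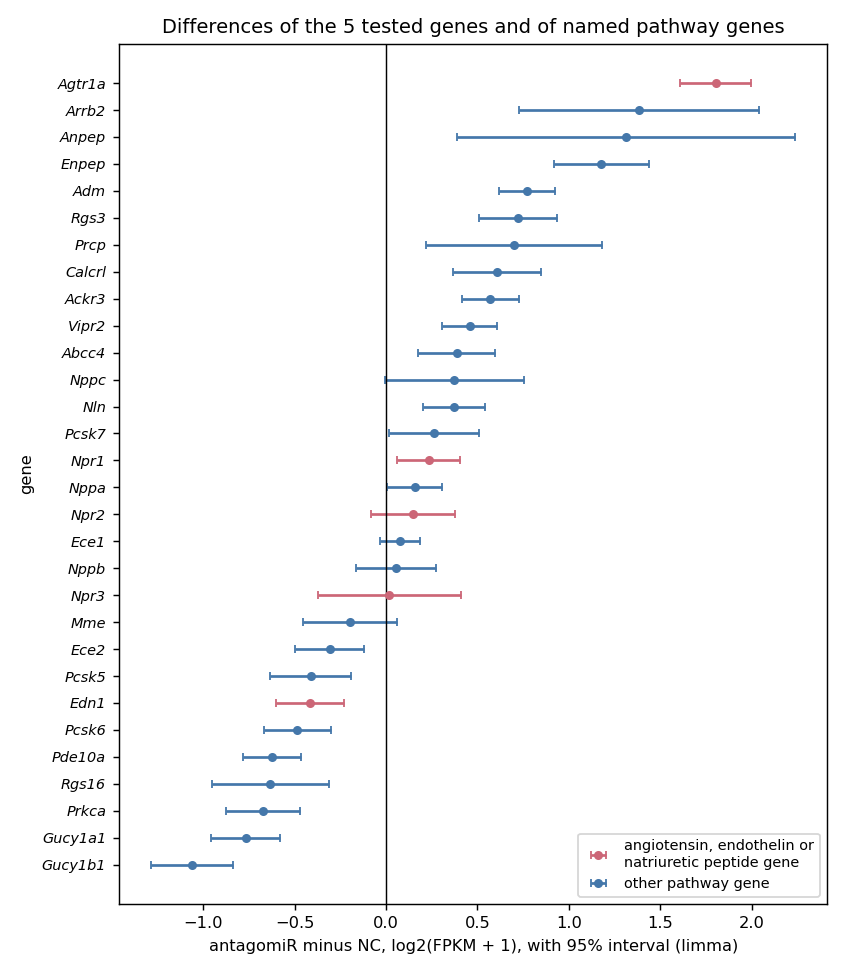
Difference of antagomiR and NC on the log2(FPKM + 1) scale with its 95% interval from limma, for the 5 tested genes of the set and for tested pathway genes named in the text. Agtr1a has the largest difference at 1.80, Gucy1b1 the lowest at -1.06, and the intervals of Npr2 and Npr3 include 0.

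Among genes of Gq and G12 signalling and receptor desensitisation, downstream of the AT1 and endothelin receptors, 5 of 33 tested genes rose and 3 fell, with a median of 0.02. Rgs3, which shortens Gq signals, stood at 18.1, 19.5 and 23.1 FPKM in NC and at 34.6, 32.2 and 34.8 with the antagomiR (0.72, SE 0.09, limma adjusted p = 0.00156). Prkca, a protein kinase C that Gq receptors activate, fell from 12.1 ± 1.11 to 7.22 ± 0.547 FPKM (-0.67, SE 0.09, limma adjusted p = 0.00171). Rgs16 fell from 2.53 ± 0.455 to 1.28 ± 0.262 FPKM (-0.63, SE 0.14, limma adjusted p = 0.0137), a call lost without antagomiR replicate 2 (adjusted p = 0.0509). Arrb2, a beta-arrestin that uncouples activated receptors, stood at 2.00, 1.73 and 4.97 FPKM in NC and at 7.95, 8.36 and 9.36 with the antagomiR (1.38, SE 0.28, limma adjusted p = 0.0109). For Arrb2, NC replicate 3 again lay toward the antagomiR group, as its sum of leukocyte markers did, and the part of leukocytes was not tested. This list had 16 called genes without NC replicate 3, and between 3 and 5 without any of the other libraries.

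Of other vasoactive peptide receptors and ligands 4 were tested and all 4 rose, with a median of 0.59. Adm, the gene of the vasodilator adrenomedullin, stood at 27.2, 25.9 and 23.5 FPKM in NC and at 43.4, 43.6 and 45.5 with the antagomiR (0.77, SE 0.06, limma adjusted p = 0.000292). Its receptor gene Calcrl rose from 1.73 ± 0.293 to 3.14 ± 0.145 FPKM (0.61, SE 0.10, limma adjusted p = 0.00511). Ackr3, a receptor that binds and removes adrenomedullin and the chemokine Cxcl12, rose from 6.46 ± 0.394 to 10.1 ± 0.318 FPKM (0.57, SE 0.07, limma adjusted p = 0.00108). Vipr2, a receptor for vasoactive intestinal peptide, rose from 4.26 ± 0.146 to 6.21 ± 0.101 FPKM (0.46, SE 0.06, limma adjusted p = 0.00234). NC replicate 3 was the highest NC library for Calcrl (2.03 FPKM) and Vipr2 (4.38) and the lowest for Adm (23.5) and Ackr3 (6.02). The ranges of the groups did not overlap for any of these 4 genes, as was also so for Anpep, Prcp and Arrb2.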

How the data were processed

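Polyadenylated RNA of 3 NC and 3 antagomiR cultures was sequenced as paired 150 bp reads, per the labels' protocols. Per the submitters' processing notes, the tools were HISAT2, HTSeq, cutadapt, FastQC and edgeR, and the build mRatBN7.2; their versions, the annotation and the strand setting are not given in the sources used here. FPKM of 30560 genes were deposited by the authors. All 6 columns were assigned by name.

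Fragment counts were recovered from the FPKM by finding a gene length that made all values above 0 whole within 0.01. A gene above 0 in few libraries can allow a length that is not its own. The check rests on genes under 400 bp, of which 91.0% to 93.1% gave whole counts per library. Summed over genes, they covered 99.66% or more of each library total. Limma 3.58.1 (R 4.3.3; lmFit, eBayes with a trend) was run on log2(FPKM + 1), two-sided and without a replicate block, over genes averaging 1 FPKM or more. Fold changes on that scale are understated for low genes. The steps were tested on simulated data.

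The 10 genes, the 5 pathway lists and the marker lists were chosen with earlier results of these data known. Genes named beside them were the ligands and enzymes next to them (Mme, Ece1, Ece2, Corin, Nppa, Nppb and Nppc; others are not reported here) and, from each list, up to 4 tested genes with the smallest p. The 10 genes get no p-value, since results of this comparison chose them. The p-values of pathway genes are descriptive, since earlier results were known when the lists were written. The 17 alternatives left out each library in turn, added a replicate block, changed the scaling (median ratios, quantiles), the pseudocount (0.1, 0.01) or the filter (none, 0.1, 5 FPKM), or changed the model (no trend, robust variances, voom on the fragments).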

Additional observations from a re-analysis of the deposited data

How the results depend on the processing

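Filters, the replicate block, the trend and robust variances cannot change a log2 difference; under pseudocounts, rescaling, voom and left-out libraries the set's genes moved by less than the spread between libraries, except Npr1, 0.09 after quantile normalization. For named pathway genes 374 values stayed as reported in sign and call, 38 lost the call, 2 gained it and 3 reversed. The reversed ones were Nppb, at -0.0084 under median-ratio scaling, -0.0661 under quantile normalization and -0.0280 without NC replicate 1 (range without each library -0.0280 to 0.1262). The 3216 called genes became between 1866 and 4877 when 1 library was left out (4877 without NC replicate 3; 2016, 1986 and 1866 without antagomiR replicate 1, 2 and 3), and the 23 pathway genes between 14 and 39. With a minimum mean of 5 FPKM 15 pathway genes were called, with fewer genes tested; for the other settings the cause was not tested. The share of called genes that were higher was 65.6%, but 51.5% with median ratios and 43.1% with quantiles, where the median log2 difference of all tested genes went from 0.06 to 0.0001 and -0.05. With a replicate block 2380 genes were called. Same-numbered libraries did not deviate together (correlations -0.16, -0.06 and -0.04). With 3 libraries per group these correlations cannot show whether same-numbered libraries shared a preparation. Agt, Ace, Ednra and Ednrb rest on 3 to 56 fragments per library, which limits any statement on them.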

Other observations

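Of 94 matched genes of the pathway lists 69 were tested. Among the rest, below the mean of 1 FPKM required for testing, 4 had ranges that did not overlap. The share over all genes below that mean was not counted, so nothing is read from this number. These 4 were picked after their values were seen and have no test. Pde9a, a phosphodiesterase specific for cyclic GMP, was at 0.0828, 0.155 and 0.109 FPKM in NC, from 3, 7 and 4 fragments, and at 1.02, 0.852 and 1.15 with the antagomiR, from 42, 39 and 49 fragments. Plcb1, a phospholipase C that Gq proteins activate, was at 0.370, 0.239 and 0.294 FPKM in NC and at 0.693, 0.780 and 0.785 with the antagomiR. Ramp3, a partner of Calcrl in adrenomedullin receptors, was at 0.170, 0.375 and 0.545 FPKM in NC and at 1.19, 0.906 and 1.27 with the antagomiR. Bdkrb1, the inducible bradykinin receptor gene, had 1, 0 and 0 fragments in NC and 10, 9 and 11 with the antagomiR.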
